A study of Homo sapiens with 4 samples.

Results

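The collagens and laminins are the structural proteins of the extracellular matrix, and their genes were taken by symbol from a comparison of SCC-9 cells given a miR-585-5p mimic with SCC-9 cells given miR-NC. A gene was included when its whole symbol was COL, digits, A and a digit, or LAMA, LAMB or LAMC and a digit, on a probe set that the platform annotation gives 1 gene symbol. This gave 53 genes, 43 collagens and 10 laminins, of 18132 named genes on the array. Each gene was read from its brightest probe set over the 4 arrays, the one with the highest mean log2 intensity.

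SCC-9 is an established human cell line from a tongue squamous cell carcinoma. The miR-585-5p mimic group is 2 arrays of SCC-9 cells transfected with a synthetic copy of the microRNA, and the miR-NC group is 2 arrays of the same line transfected with the control small RNA. All cells were transfected at 30 nM, 24 h after seeding, and total RNA was collected 36 h later for a PrimeView expression array. The comparison asks which transcripts differ when this microRNA is supplied in excess. Whether a group's arrays came from separate cultures is not in the labels, so the p-values cover just the spread among these samples, which may be technical, and the number of arrays limits the precision. As these are bulk RNA samples of a single line, fewer cells of a kind and less RNA per cell cannot be told apart.

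Collagen chains wind around each other into a helical trimer, made of copies of 1 chain or of chains from different genes, so the chains of a trimer are needed together. Fibrillar collagens build the fibres of connective tissue, while type IV collagen and the laminins, each a trimer of an alpha, a beta and a gamma chain, form the sheets of the basement membrane on which squamous epithelium rests. Type VII collagen anchors that sheet to the tissue beneath, and carcinoma cells make, cleave and bind many of these proteins as they cross it.

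The transfected microRNA is shown because a microRNA finds its targets mainly through its seed, bases 2 to 8 counted from the 5′ end, which are in capitals. The mature sequence is that of RefSeq on GRCh38.p14, where it lies at chr5:169263649-169263670 on the minus strand.
hsa-miR-585-5p: cUAGCACAcagauacgcccaga
No transcript sequences were used here, so sites for this seed in the collagen and laminin transcripts were not searched.

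Array medians were 31.1 and 30.6 in the mimic group and 31.3 and 30.7 in the miR-NC group (linear intensity), and arrays correlated at 0.997 to 0.998 within a group and at 0.978 to 0.982 between groups. All 5 squamous epithelial markers analysed here (KRT5, KRT14, CDH1, EPCAM and DSP) were above the 20 control probe sets with no human target, the highest of which read 16.8. Above background means above this level here and in what follows. Another set of background controls, grouped by G and C bases, averaged 16.2 with 17 such bases, 26.1 with 18 and 1289 with 25, and the base content of the probes was not used here, so genes with low values, such as COL1A1, are above the no-target controls only. The summed intensity of the 5 squamous markers was 18388 and 17756 on the mimic arrays against 14302 and 15000 on the miR-NC arrays. All 5 passed the test, with KRT14 (log2 change 0.97), EPCAM (0.59), DSP (0.25) and KRT5 (0.24) higher and CDH1, which encodes E-cadherin, lower (-1.26). Of 7 fibroblast markers 3 exceeded the no-target controls (PDGFRB, THY1 and FAP), with summed intensities of 186 and 209 on the mimic arrays against 159 and 164 on the miR-NC arrays. The other 4, PDGFRA, DCN, LUM and TCF21, did not exceed them on any array. Endothelial markers summed to 126 and 110 on the mimic arrays against 157 and 147 on the miR-NC arrays, with CDH5 and TEK at background, and leukocyte markers to 206 and 175 on the mimic arrays against 163 and 177 on the miR-NC arrays, with PTPRC at background. Of these other markers FAP (0.47) and CD14 (0.68) were higher and KDR (-0.73) was lower at a limma adjusted p under 0.05, and the rest did not pass or were not tested. The part of these marker levels in the results below was not tested.

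Of the 53 genes, 38 had a mean intensity over 12.04, the 30th percentile, and were tested, 28 collagens and all 10 laminins. In the mimic group 7 were higher and 11 lower at a limma adjusted p under 0.05, where the p-value was adjusted over all 14122 genes tested. That is 18 of 38 (47.4%), against 55.0% of all genes tested, so the share of changed genes was no higher than the background. Over all genes 28.1% were higher and 26.9% lower. The median log2 change of the 38 genes was -0.13, against -0.06 over all genes, and the median size of the change was 0.31, against 0.29. Changes of at least 2-fold numbered 4, COL6A1, COL18A1, COL2A1 and COL9A3, against a background of 8.16%. In 30 of the 38 genes the arrays of the groups did not overlap, against 79.4% of all genes. The mimic arrays were above in 9 and below in 21, against 36.5% and 42.9% of all genes.

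The split by direction changes with the scaling. The poly(A) spikes, bacterial RNAs added to the samples, read 0.35 higher (log2) on the mimic arrays, and after scaling to them 4 of the 38 genes were higher (10.5%) and 24 lower (63.2%), against 11.4% and 58.1% of all genes tested under the same scaling. Each log2 change is then lower by 0.35, with the median of all genes at -0.40 and that of the 38 genes at -0.47. All changes below are on the deposited scale unless the spikes are named. When mimic replicate 2 was left out, 7 of the 38 were lower and 7 higher. Under all 17 alternatives 7 genes kept their direction and their call: COL6A1, COL18A1 and LAMB1 higher, and COL2A1, COL9A3, COL4A5 and LAMB2 lower. COL2A1, COL9A3 and LAMB2 have 1 probe set each, so the 2 alternatives on the choice of probe set could not change which one was read.

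**Figure D1:**
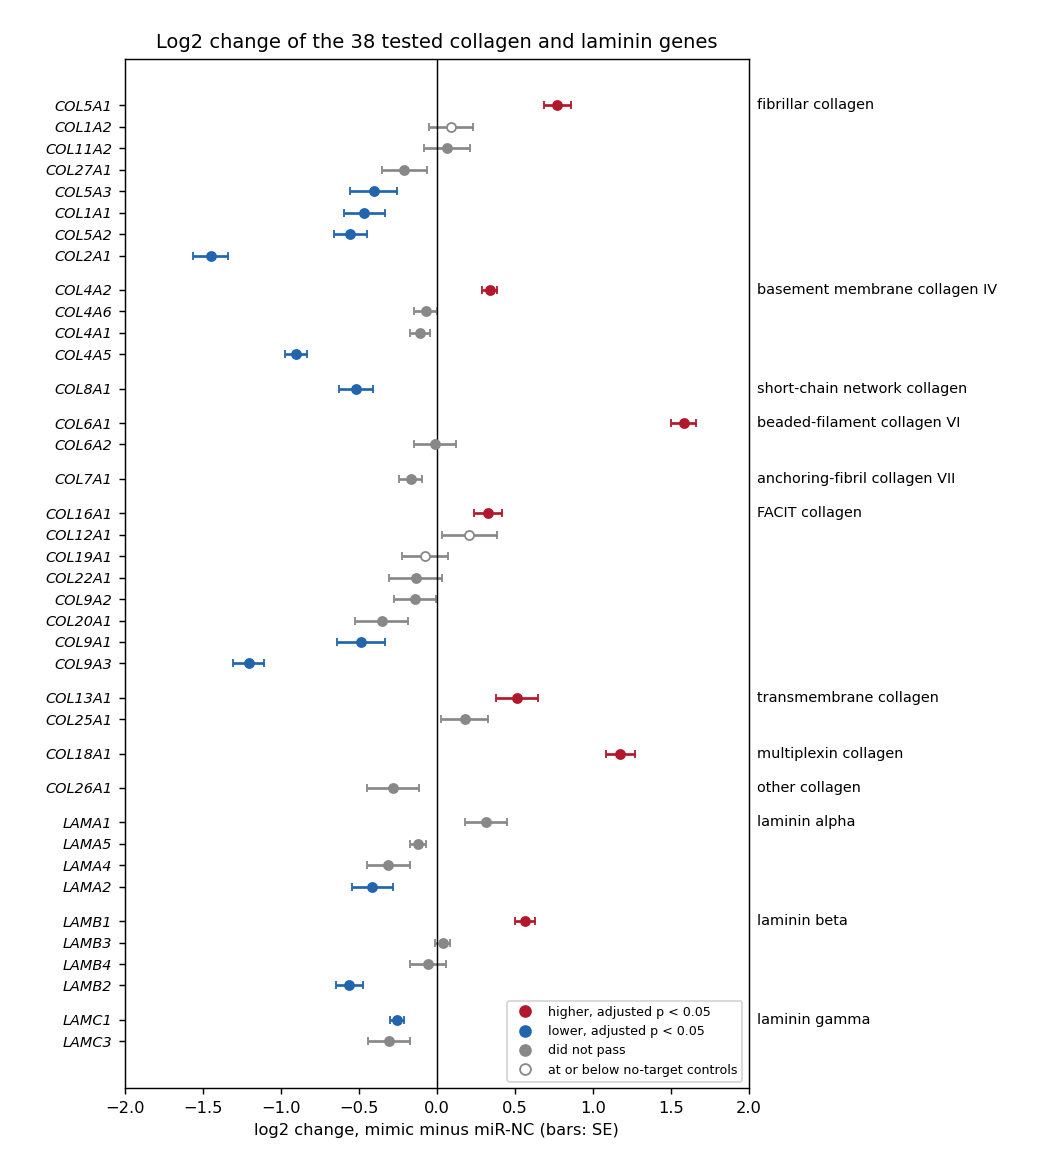
Log2 change, mimic minus miR-NC, of the 38 tested collagen and laminin genes (points, with SE as bars, n = 2 arrays per group), grouped by family. COL6A1 is the highest at 1.58 and COL2A1 the lowest at -1.45; open points are the genes at or below the no-target controls on every array.

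The remaining 15 genes, all collagens, read 3.42 to 15.3, had means below the filter and were not tested, and lay at or below the no-target controls on every array. They were COL15A1, COL4A4, COL10A1, COL4A3, COL28A1, COL6A6, COL6A5, COL23A1, COL24A1, COL21A1, COL3A1, COL6A3, COL14A1, COL11A1 and COL8A2. COL19A1 (mean 12.3), COL12A1 (13.0) and COL1A2 (14.3) passed the filter and were also at or below those controls, while COL8A2 (11.02) and COL11A1 (10.2) lay just outside it. COL3A1 and COL1A2, chains of the main fibrous collagens of connective tissue, were thus not measured above background in these carcinoma cells.

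Among the fibrillar collagens 8 of 11 were tested, 1 was higher and 4 were lower. COL2A1, the single chain of cartilage collagen II, read 28.1 and 26.5 on the mimic arrays against 75.0 and 74.2 on the miR-NC arrays. It fell 2.73-fold, by 1.45 ± 0.11 on the log2 scale (SE, 2 arrays per group; limma adjusted p = 1.47e-06), and the groups lay far apart. COL2A1 was read by a single probe set.

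Type V collagen regulates the width of collagen fibrils, and its chains moved in different directions. COL5A1 (chromosome 9) read 175 and 195 on the mimic arrays against 109 and 107 on the miR-NC arrays, a rise of 0.77 ± 0.09 (log2, limma adjusted p = 2.78e-05). COL5A2 (chromosome 2), the chain that pairs with it, read 49.2 and 48.7 on the mimic arrays against 73.5 and 70.2 on the miR-NC arrays, a change of -0.55 ± 0.10 (limma adjusted p = 0.000981). Neither pair of groups overlapped. COL5A3, another type V chain, read 25.1 and 19.7 on the mimic arrays against 31.3 and 27.7 on the miR-NC arrays (-0.40 ± 0.15, limma adjusted p = 0.0439). It lost the call under several alternatives and was at -0.23 without mimic replicate 2. The sizes for COL5A1 and COL5A2 belong to their brightest probe sets, which by name can cross-hybridize. Without such probe sets COL5A1 was at 0.09 and COL5A2 at -0.06, neither past the threshold, and averaged over all probe sets they were at 0.35 and -0.21. With the poly(A) spikes COL5A1 was at 0.43 and COL5A2 at -0.90.

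COL1A1, the more abundant chain of collagen I in most tissues, read 18.4 and 18.9 on the mimic arrays against 26.6 and 24.9 on the miR-NC arrays. Its change was -0.47 ± 0.13 (log2, limma adjusted p = 0.0117), and its groups did not overlap, though both lay close to the no-target controls. Of 3 other COL1A1 probe sets above background 2 fell and 1 did not pass, between -0.83 and -0.51. The call was lost without mimic replicate 1 (-0.44) and without mimic replicate 2 (-0.49). COL1A2, its partner, read 14.7 and 14.8 on the mimic arrays against 13.8 and 13.9 on the miR-NC arrays, below the no-target controls. COL11A2, a chain of cartilage collagen XI, was at 0.07 and COL27A1 at -0.21, and neither passed.

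**Figure D2:**
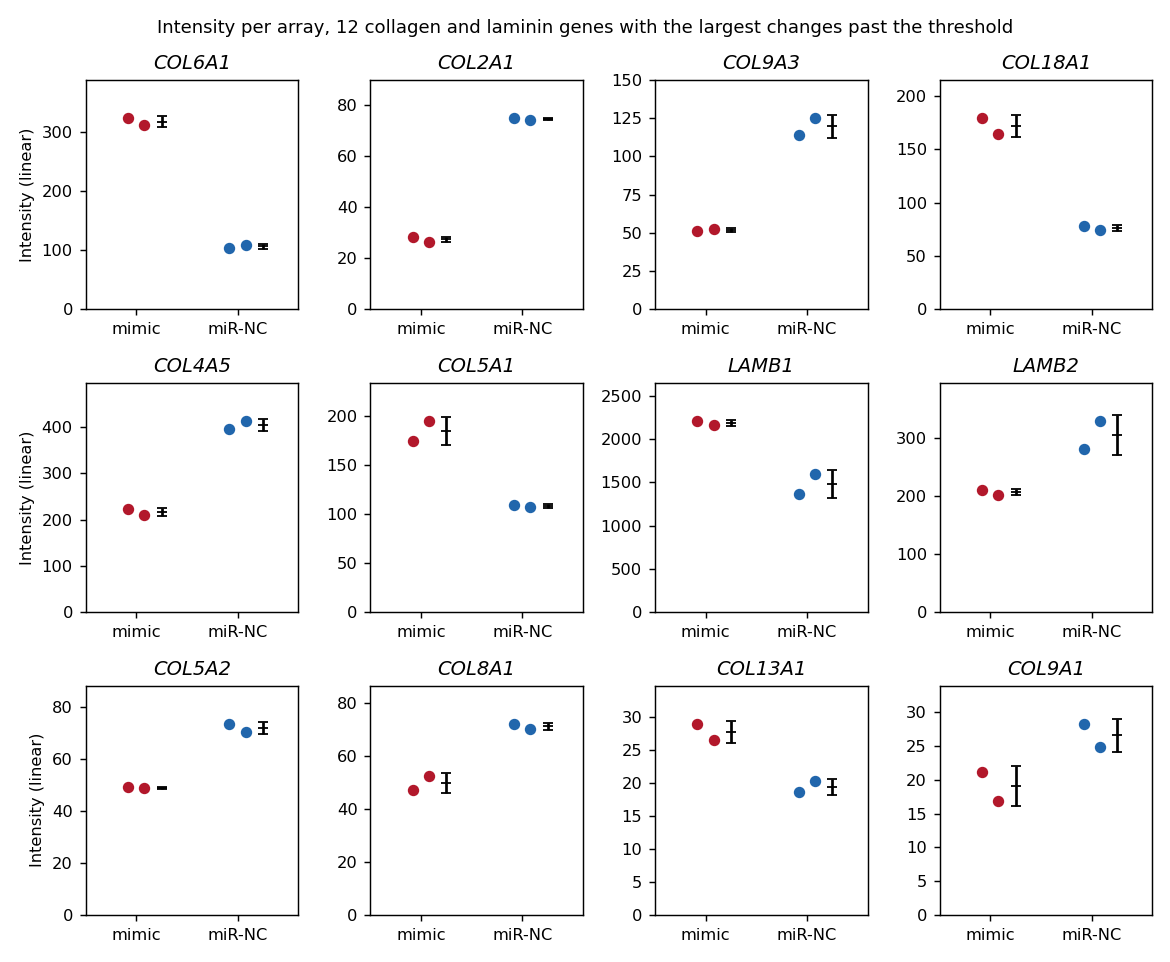
Linear intensity on each array of the 12 collagen and laminin genes with the largest changes among those past the threshold, with the 2 mimic arrays left and the 2 miR-NC arrays right in each panel. The groups do not overlap in any of the 12 panels, nor in any of the 18 genes past the threshold, from which the panels were picked. Panels are ordered by the size of the log2 change, from COL6A1 (324 and 312 in mimic, 104 and 109 in miR-NC) to COL9A1 (21.1 and 16.9 in mimic, 28.3 and 24.9 in miR-NC).

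Type IV collagen, the network of the basement membrane, is encoded by gene pairs that lie head to head, and 4 of its 6 chains were tested. COL4A2 read 1190 and 1197 on the mimic arrays against 952 and 936 on the miR-NC arrays. It rose by 0.34 ± 0.05 (log2, limma adjusted p = 0.000172), with both mimic arrays above both miR-NC arrays. With the poly(A) spikes it was at -0.0074, and without cross-hybridizing probe sets at 0.15, neither past the threshold. COL4A1, the chain that forms the trimer with COL4A2, read 464 and 475 on the mimic arrays against 527 and 485 on the miR-NC arrays, a change of -0.11 ± 0.07 that did not pass (limma adjusted p = 0.190). A second COL4A1 probe set read 87.9 and 82.6 on the mimic arrays against 65.3 and 59.6 on the miR-NC arrays and rose by 0.45 ± 0.11 (limma adjusted p = 0.00340 over 31752 probe sets), so the direction of COL4A1 depends on the probe set.

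COL4A5 and COL4A6, on the X chromosome, form another collagen IV trimer, found in basement membranes of some epithelia. COL4A5 read 223 and 211 on the mimic arrays against 396 and 414 on the miR-NC arrays. It fell 1.87-fold, by 0.90 ± 0.07 on the log2 scale (limma adjusted p = 1.61e-06), and a second COL4A5 probe set fell by 0.89. COL4A6 read 510.4 and 449 on the mimic arrays against 516 and 490.4 on the miR-NC arrays, which overlap (-0.07 ± 0.07, limma adjusted p = 0.429). The 6 other COL4A6 probe sets above background ranged from -0.22 to 0.04 and none passed.

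The stretches between or before these starts are shown because the brightest probe sets of each pair differ in their change. They are RefSeq promoter windows on GRCh38.p14, with CCAAT (or ATTGG on the other strand) and GGGCGG (or CCGCCC) in capitals. The COL4A1 and COL4A2 starts lie 126 bases apart, and the stretch between them, chr13:110307158-110307283 on the plus strand (the COL4A2 strand), is 80.2% G or C with 1 CCAAT and 1 GGGCGG.
COL4A1 to COL4A2: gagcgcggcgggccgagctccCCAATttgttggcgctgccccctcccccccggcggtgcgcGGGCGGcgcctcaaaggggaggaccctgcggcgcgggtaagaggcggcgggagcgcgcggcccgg
The COL4A5 and COL4A6 starts lie 379 bases apart, and the 250 bases before each share 121 bases. The COL4A5 window is chrX:108439588-108439837 on the plus strand (51.2% G or C), and the COL4A6 window is chrX:108439459-108439708 on the minus strand (44% G or C), taken at the COL4A6 start nearest to COL4A5.
COL4A5 upstream: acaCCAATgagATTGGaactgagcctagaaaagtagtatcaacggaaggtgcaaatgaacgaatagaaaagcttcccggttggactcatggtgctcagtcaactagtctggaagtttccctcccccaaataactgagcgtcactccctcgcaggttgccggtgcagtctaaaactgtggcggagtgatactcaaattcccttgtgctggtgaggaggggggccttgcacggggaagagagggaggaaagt
COL4A6 upstream: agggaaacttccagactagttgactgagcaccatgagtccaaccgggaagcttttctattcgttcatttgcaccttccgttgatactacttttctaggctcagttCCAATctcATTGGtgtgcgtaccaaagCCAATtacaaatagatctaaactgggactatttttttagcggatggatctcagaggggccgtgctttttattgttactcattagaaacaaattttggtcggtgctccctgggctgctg
The COL4A5 window holds 2 CCAAT motifs and the COL4A6 window 3, and neither holds GGGCGG. Both COL4A5 motifs lie in the stretch that the windows share, so they are the same bases as 2 of the 3 COL4A6 motifs. The motif CCAAT was in 34.6% of the 35116 RefSeq promoter windows, of 250 bases before to 50 after a start, and in 15 of the 53 windows of the 39 collagen and laminin genes that had one. GGGCGG was in 45.0% of all windows and in 31 of those 53. These matches are a description of the letters in the windows.

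Of the short-chain collagens, which form hexagonal networks, COL8A1 was the 1 of 3 tested. It read 47.1 and 52.4 on the mimic arrays against 72.2 and 70.2 on the miR-NC arrays. It fell by 0.52 ± 0.11 (log2, limma adjusted p = 0.00199) and the groups did not overlap. The average over all its probe sets was -0.14, which did not pass, and no other COL8A1 probe set was above background. With the poly(A) spikes it was at -0.86.

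Type VI collagen forms beaded filaments around cells from chains of several genes, and 2 of 5 were tested. COL6A1, on chromosome 21, read 324 and 312 on the mimic arrays against 104 and 109 on the miR-NC arrays. It rose 2.99-fold, by 1.58 ± 0.08 on the log2 scale (SE, 2 arrays per group; limma adjusted p = 6.71e-08). With each gene read from its brightest probe set, that was the largest change among the 38 genes in either direction. COL6A2, a chain of the same trimer from a gene on the same chromosome, read 30.8 and 31.9 on the mimic arrays against 34.6 and 28.7 on the miR-NC arrays, and the groups overlapped (-0.01 ± 0.13, limma adjusted p = 0.962). Its other 3 probe sets lay between 0.08 and 0.15 and none passed. COL6A3, usually the third chain of that trimer, was at background.

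The COL6A1 probe sets differed in size. The 4 others above background were at 0.66, 0.39, 0.25 and 0.25 (log2), of which the 2 larger passed, and a last one, below the no-target controls on every array, was at -0.25 and did not pass. The brightest one can cross-hybridize by its name, and it was picked over all 4 arrays, the mimic arrays included. On the miR-NC arrays it read 104 and 109, and the probe set at 0.39 read 108 and 106. The choice between them thus rested on the mimic arrays, so the size of 1.58 and its rank depend on that choice. Averaged over all probe sets COL6A1 was at 0.48, and without cross-hybridizing ones at 0.66, and both values passed.

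COL7A1, the anchoring-fibril collagen beneath squamous epithelium, read 345 and 314 on the mimic arrays against 383 and 356 on the miR-NC arrays. Both mimic arrays were below both miR-NC arrays, and the change of -0.17 ± 0.07 did not pass (limma adjusted p = 0.0792). It passed with a second quantile normalization (-0.20), with the poly(A) spikes (-0.51) and without miR-NC replicate 2 (-0.22).

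The fibril-associated collagens, which decorate the surface of other fibrils, had 8 of 10 members tested, with 1 higher and 2 lower. COL9A3, a chain of cartilage collagen IX, read 51.0 and 52.8 on the mimic arrays against 114 and 125 on the miR-NC arrays. It fell 2.31-fold, by 1.21 ± 0.10 on the log2 scale (limma adjusted p = 2.62e-06), and its groups lay well apart. The other chains of collagen IX changed less. COL9A1 read 21.1 and 16.9 on the mimic arrays against 28.3 and 24.9 on the miR-NC arrays (-0.49 ± 0.15, limma adjusted p = 0.0196). It did not pass when all its probe sets were averaged (-0.22), without mimic replicate 2 (-0.33) or without miR-NC replicate 1 (-0.39). No other COL9A1 probe set was above background, so that average includes probe sets at background. COL9A2 read 22.7 and 23.2 on the mimic arrays against 26.8 and 23.9 on the miR-NC arrays and did not pass (-0.14 ± 0.13).

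COL16A1, a fibril-associated collagen found near basement membranes, read 187 and 166 on the mimic arrays against 143 and 138 on the miR-NC arrays. It rose by 0.33 ± 0.09 (log2, limma adjusted p = 0.00898), without overlap. The call was lost without mimic replicate 1 (0.24) and with the poly(A) spikes (-0.018). COL20A1 (-0.35), COL22A1 (-0.13), COL12A1 (0.21) and COL19A1 (-0.08) did not pass.

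COL13A1, a transmembrane collagen of cell contacts, was 1 of 2 tested of its class. It read 28.9 and 26.6 on the mimic arrays against 18.6 and 20.3 on the miR-NC arrays, and rose by 0.52 ± 0.13 (log2, limma adjusted p = 0.00741). Its other 3 probe sets above background also rose, by 0.38 to 0.72. The call was lost with the poly(A) spikes (0.17) and without mimic replicate 1 (0.45). COL25A1, another transmembrane collagen, was at 0.18 and did not pass, nor did COL26A1 at -0.28.

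COL18A1, a collagen of basement membranes whose cleaved end is endostatin, read 179 and 164 on the mimic arrays against 78.2 and 73.8 on the miR-NC arrays. It rose 2.26-fold, by 1.18 ± 0.09 on the log2 scale (limma adjusted p = 1.69e-06). A second COL18A1 probe set rose by 1.16, close to the first, and the groups did not overlap on either. COL15A1, its relative, was at background.

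All 4 laminin alpha chains were tested and 1 passed. LAMA2, the alpha chain of muscle and nerve laminin, read 28.1 and 24.8 on the mimic arrays against 33.3 and 37.0 on the miR-NC arrays. It fell by 0.41 ± 0.13 on the log2 scale (limma adjusted p = 0.0210), and lost the call with the hybridization spikes (-0.36) and without mimic replicate 1 (-0.50), mimic replicate 2 (-0.32) or miR-NC replicate 2 (-0.34). LAMA5, the broadly expressed epithelial alpha chain, read 2145 and 1986 on the mimic arrays against 2249 and 2235 on the miR-NC arrays. Both mimic arrays were below both miR-NC arrays, and the change of -0.12 ± 0.05 did not pass (limma adjusted p = 0.0618), while with the poly(A) spikes it was at -0.47 and with a second quantile normalization at -0.18, and both passed. LAMA1 was at 0.31 and LAMA4 at -0.31, with adjusted p-values of 0.0712 and 0.0782 from limma.

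Of the 4 beta chains, 1 rose and 1 fell. LAMB1, the beta chain of many basement membrane laminins, read 2214 and 2164 on the mimic arrays against 1369 and 1598 on the miR-NC arrays. It rose by 0.57 ± 0.07 (log2, limma adjusted p = 3.33e-05), a second probe set rose by 0.42, and with the poly(A) spikes it was at 0.22. LAMB2, the beta chain that can take its place in a laminin, read 210.2 and 203 on the mimic arrays against 281 and 330 on the miR-NC arrays. It fell by 0.56 ± 0.09 (limma adjusted p = 0.000253), and with the poly(A) spikes it was at -0.91. Neither gene had overlapping groups. LAMB3, a chain of the hemidesmosomal laminin of squamous epithelium, read 2406 and 2516 on the mimic arrays against 2345 and 2450 on the miR-NC arrays, which overlap (0.04 ± 0.05, limma adjusted p = 0.511). LAMB4 was at -0.05 and did not pass.

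LAMC1, the gamma chain of most laminins, read 1794 and 1851 on the mimic arrays against 2148 and 2210.1 on the miR-NC arrays, a change of -0.26 ± 0.05 (log2, limma adjusted p = 0.000639). Its probe sets disagreed. A second one, the brightest that is not marked as cross-hybridizing, read 1197 and 1233 on the mimic arrays against 823 and 889 on the miR-NC arrays and rose by 0.51 ± 0.06. Another fell by 0.22 (limma adjusted p = 0.0117), and the last was at 0.27 and did not pass (limma adjusted p = 0.0666). Averaged over all probe sets LAMC1 was at 0.03, so no direction is given for the gene as a whole, though it counts among the 11 lower. LAMC3 was at -0.31 and did not pass (limma adjusted p = 0.0812).

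**Figure D3:**
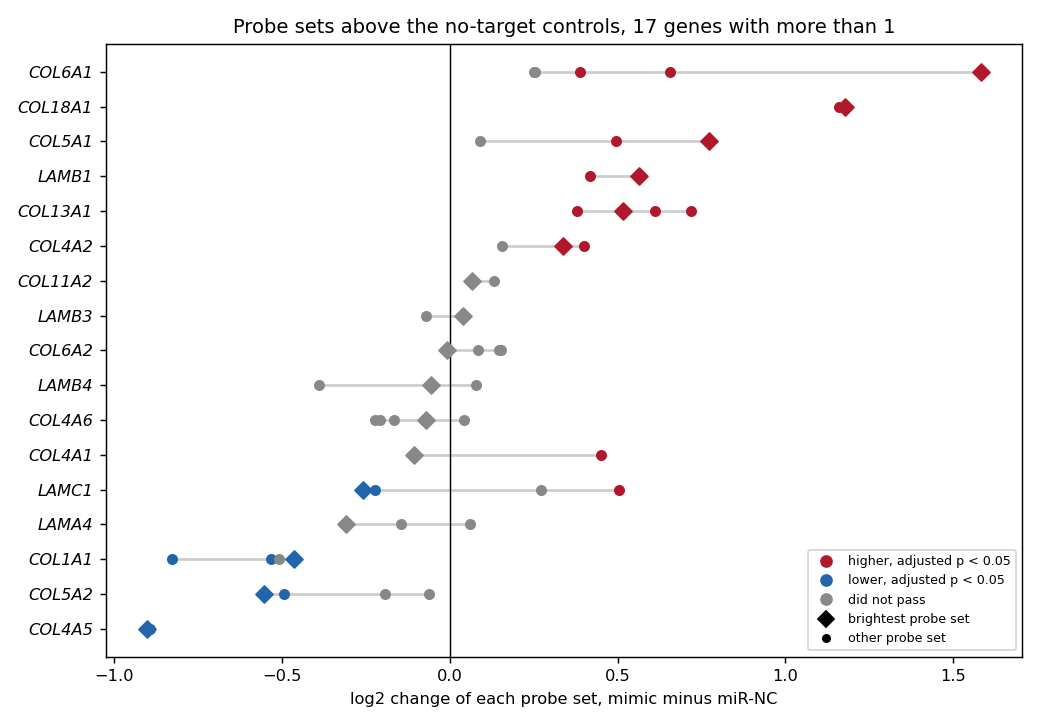
Log2 change, mimic minus miR-NC, of each probe set above the no-target controls for the 17 tested genes that have more than 1, with the brightest probe set as a diamond and the others as dots. COL18A1 and COL4A5 have probe sets close together, COL6A1 spreads from 0.25 to 1.58, and LAMC1 has passing probe sets on both sides of 0.

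Among the 18 genes that passed, 10 had another probe set above background. In 9 of them at least 1 other probe set passed in the same direction and none passed in the opposite one, and LAMC1 was the exception. The other 8 had no second probe set above background, among them COL2A1, COL9A3 and LAMB2. Values in low ranges are limited by signal over background. Of the 38 tested genes 14 were below an intensity of 30 on every array, and 3 of these passed. The share of all genes in that range that passed was not computed, so these counts are not set against a background.

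Chains of the same trimer, or chains that replace each other in it, were set against each other as a ratio within each array. A shift of all log2 values of an array, as in scaling to spikes, cancels in this ratio. A normalization that acts by intensity, such as quantile normalization, does not. The 10 pairs were chosen with the values of these genes known. In all 10 the groups did not overlap. The share of other gene pairs without overlap was not computed, and among all single genes tested 79.4% did not overlap. The exact two-sided permutation test gave p = 0.333 for each (0.333 after adjustment over the 10), the smallest that 2 arrays against 2 can give. The difference in log2 change was 1.59 ± 0.18 for COL6A1 minus COL6A2 (SE) and 1.33 ± 0.09 for COL5A1 minus COL5A2. It was 1.13 ± 0.01 for LAMB1 minus LAMB2, -0.83 ± 0.09 for COL4A5 minus COL4A6 and -1.07 ± 0.15 for COL9A3 minus COL9A2. The SE of these differences, here and below, come from the ratios of 2 arrays per group alone, without the limma prior. They cannot be compared with the limma SE of single genes, 0.07 for LAMB1 and 0.09 for LAMB2. A very small SE, such as 0.01, is no measure of precision with so few arrays. COL9A3 minus COL9A1 was -0.72 ± 0.24.

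Some of these ratios moved with the choice of probe sets. COL9A3 and COL9A2 have 1 probe set each, so their ratio could not move, and LAMB2 has 1. Averaged over all probe sets, LAMB1 minus LAMB2 was 1.05 and COL4A5 minus COL4A6 -0.57, while COL6A1 minus COL6A2 was 0.39 and COL5A1 minus COL5A2 0.55. Without cross-hybridizing probe sets COL6A1 minus COL6A2 was 0.66 and COL5A1 minus COL5A2 0.15. COL4A2 minus COL4A1 was 0.45 ± 0.05 with the brightest probe sets and -0.30 without cross-hybridizing ones. LAMB1 minus LAMC1 was 0.82 ± 0.10 with the brightest probe sets and 0.06 without cross-hybridizing ones. LAMA5 minus LAMC1 was 0.14 ± 0.08 and -0.62 on the same terms. COL1A1 minus COL1A2 was -0.55 ± 0.05, with COL1A2 at background.

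**Figure D4:**
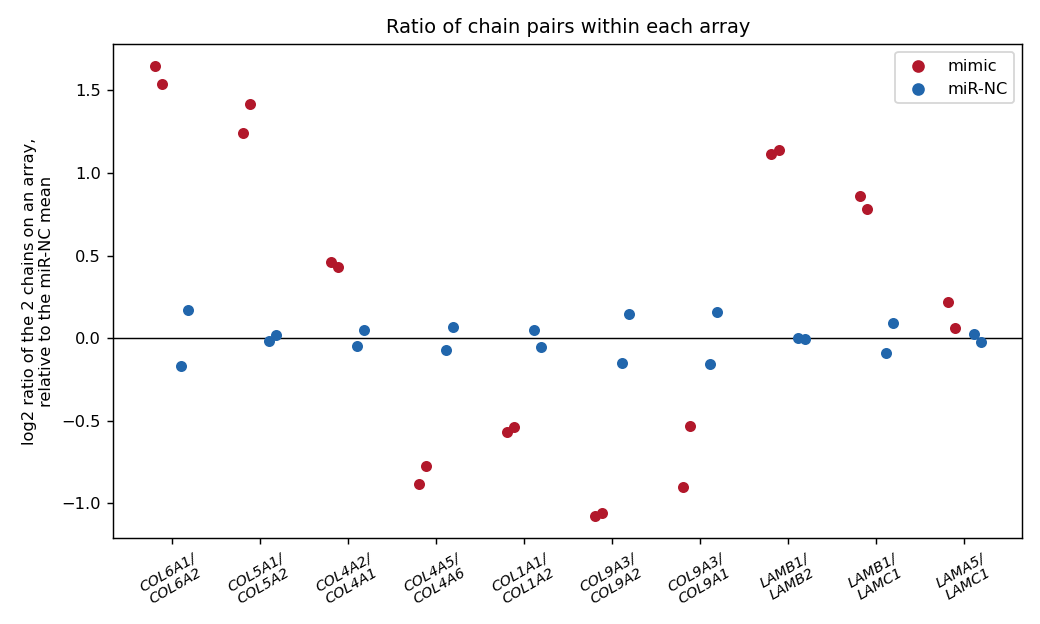
Log2 ratio of 2 chains on each array, relative to the mean of the miR-NC arrays, for 10 pairs of collagen or laminin chains, with mimic arrays and miR-NC arrays as separate points. The mimic points of COL6A1 over COL6A2 lie at 1.64 and 1.54 and those of COL9A3 over COL9A2 at -1.07 and -1.06, outside the miR-NC points of each pair.

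Genes that act on collagens and laminins were described by 4 lists, which were chosen with earlier results of these data known. Of 16 tested genes of collagen folding and modification, 8 were higher and 3 lower, which is 68.8% against 55.0% of all genes tested, with a median log2 change of 0.24 against -0.06 over all genes. With the poly(A) spikes 5 were higher and 7 lower (median -0.11), against 11.4% and 58.1% of all genes tested under that scaling. Without cross-hybridizing probe sets 6 of 14 were higher and 3 lower (median 0.12). PLOD2, the lysyl hydroxylase that sets the type of collagen cross-link, read 1627 and 1745 on the mimic arrays against 221 and 270.0 on the miR-NC arrays. It rose 6.89-fold, by 2.79 ± 0.09 on the log2 scale (limma adjusted p = 3.88e-09), and no array overlapped. P3H4, a partner of lysyl hydroxylases, rose by 0.90 ± 0.07, and P3H2, a prolyl 3-hydroxylase that acts on collagen IV, fell by 0.86 ± 0.06, or by 0.50 averaged over all its probe sets. FKBP10, a collagen chaperone, rose by 0.84 ± 0.13, but averaged over all probe sets it was at 0.13, and at -0.35 without cross-hybridizing ones (limma adjusted p = 0.0449), so its direction depends on the probe set.

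Of 6 tested genes of procollagen trimming, 3 were higher and 2 lower, 83.3% against 55.0% of all genes, with a median of 0.05. The median was -0.30 with the poly(A) spikes, where 2 were higher and 3 lower, against 11.4% and 58.1% of all genes. It was -0.07 averaged over all probe sets, where 2 were higher and 2 lower. PCOLCE2, an enhancer of the protease that removes the end of procollagen, read 180.2 and 166 on the mimic arrays against 40.9 and 40.4 on the miR-NC arrays. It rose 4.26-fold, by 2.09 ± 0.10 (log2, limma adjusted p = 4.78e-08). ADAMTS2, which removes the other end, rose by 0.83 ± 0.10. TLL1, another gene of this list, fell by 0.48 ± 0.11 and did not pass without mimic replicate 2 (-0.36). PCOLCE fell by 0.32 ± 0.10 and missed the threshold without cross-hybridizing probe sets (-0.27), mimic replicate 2 (-0.21) or miR-NC replicate 1 (-0.21).

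Of 12 tested receptors of collagens and laminins, 2 were higher and 5 lower, 58.3% against 55.0% of all genes and so near the background, with a median of -0.28. ITGA10, the alpha chain of a collagen-binding integrin of cartilage, read 34.0 and 28.7 on the mimic arrays against 95.5 and 98.7 on the miR-NC arrays. It fell by 1.64 ± 0.12 on the log2 scale (limma adjusted p = 9.18e-07) and averaged -0.81 over all its probe sets. ITGB4, the laminin-binding integrin chain of hemidesmosomes, fell by 1.11 ± 0.07, and DDR1, a collagen-activated kinase, by 0.78 ± 0.05. ITGB1, the beta chain shared by most collagen and laminin integrins, rose by 0.52 ± 0.05, and ITGA6, its alpha partner and that of ITGB4, by 0.50. ITGA6 is named beyond the rule for named genes, chosen after its value was seen. After scaling to the poly(A) spikes 0 of the 12 receptors were higher and 10 lower, against 11.4% and 58.1% of all genes tested under that scaling. ITGB1 was then at 0.17 and did not pass.

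Of 11 tested partners of the basement membrane and of hemidesmosomes, 3 were higher and 4 lower, 63.6% against 55.0% of all genes, with a median of -0.11. Scaling to the poly(A) spikes gave 1 higher and 7 lower (median -0.45), against 11.4% and 58.1% of all genes under that scaling. Averaged over all probe sets 1 was higher and 3 lower. SMOC2, a calcium-binding matrix protein of basement membranes, read 470.2 and 404 on the mimic arrays against 1593 and 1655 on the miR-NC arrays. It fell by 1.90 ± 0.07 on the log2 scale (limma adjusted p = 1.24e-08) and averaged -0.87 over all its probe sets. PXDN, the peroxidase that cross-links collagen IV, read 419 and 421 on the mimic arrays against 181 and 175 on the miR-NC arrays, a rise of 1.24 ± 0.07 (limma adjusted p = 1.58e-07). NTN4, a laminin-related netrin, fell by 0.58 ± 0.08. NID1, which links laminin to collagen IV, rose by 0.35 ± 0.09, but was at 0.01 with the poly(A) spikes, at -0.05 averaged over all probe sets, and did not pass without mimic replicate 1 (0.29).

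**Figure D5:**
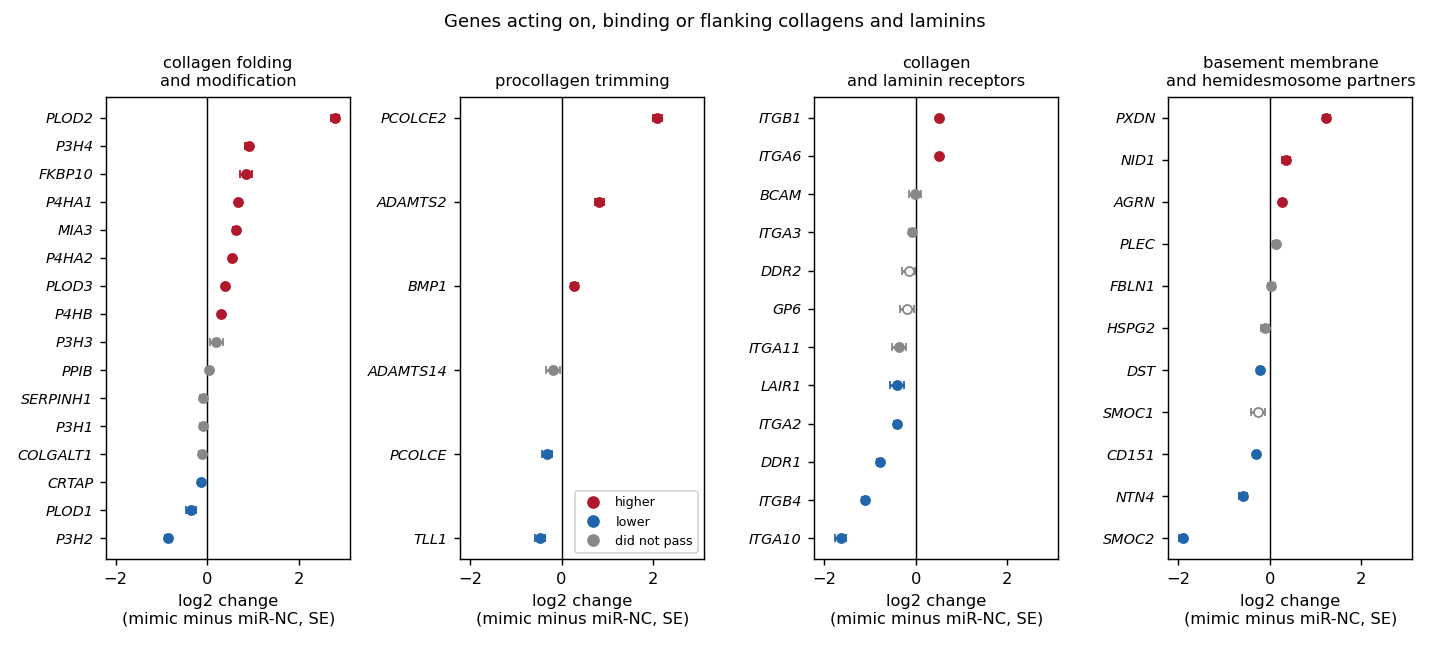
Log2 change, mimic minus miR-NC, with SE (n = 2 arrays per group), of the tested genes of 4 lists of genes that modify, trim, bind or flank collagens and laminins. PLOD2 (2.79) and PCOLCE2 (2.09) are the highest and SMOC2 (-1.90) and ITGA10 (-1.64) the lowest.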

How the data were processed

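Total RNA was measured on 4 PrimeView arrays, 2 per group, grouped by sample title. The deposited values are probe set intensities on a linear scale, made by the authors with RMA, per the submitters' processing notes, and their log2 was taken here. RMA brings arrays to 1 distribution, so a change of all transcripts one way cannot be seen. Of 49395 probe sets, 102 are controls and 44988 have 1 gene symbol in the platform annotation, naming 18132 genes. Each gene took its brightest probe set, and 14122 genes above the 30th percentile were fitted with limma 3.58.1 in R 4.3.3 (mean-variance trend, two-sided, Benjamini-Hochberg adjustment, threshold 0.05). The fit had 2 residual degrees of freedom and a prior worth 8.35, and log2 changes had a median SE of 0.095. On simulated data with 200 of 14122 genes changed, 26% were recovered at 1.25-fold, 76% at 1.5-fold, 98% at 2-fold and 100% at 4-fold, and 8 of 158 calls were false. In the data 7768 of the 14122 genes passed, and the adjustment depends on that share. The recovery rates thus describe the simulated setting and not this comparison.

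The members and lists were chosen with earlier results of these data known. Values on every array are given for the 12 collagen and laminin genes with the largest changes past the threshold and for partner chains, and up to 4 changed genes are named per list. Other genes with values were named after those were seen. Alternatives were other scalings, filters, probe set choices and spread estimates, the replicate number as a block, a stricter threshold and leaving out each array. A fit on single probe sets was added after seeing the data. Collagen, laminin and partner genes that have no probe set with 1 symbol in the tables used were not analysed here.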

Additional observations from a re-analysis of the deposited data

How the results depend on the processing

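The counts of 7 higher and 11 lower collagen and laminin genes became 4 and 24 with the poly(A) spikes, 6 and 7 above the 50th percentile (21 genes tested), and 7 and 7 at an adjusted p under 0.01. Leaving out 1 array gave 5 to 8 higher and 7 to 12 lower, with the lone array of a group assumed to vary like the other group. The labels give both groups the numbers 1 and 2, and same-numbered arrays correlated at 0.08 in their deviations. With 2 arrays per group this cannot settle whether the numbers pair them. With the replicate number as a block the counts stayed 7 and 11, and 8253 of all genes passed against 7768. Directions turned as follows, and where no probe set choice is named the cause was not tested. With the poly(A) spikes, which lower every gene, COL11A2 was at -0.28, COL12A1 -0.14, COL16A1 -0.018, COL1A2 -0.26, COL25A1 -0.17, COL4A2 -0.0074, LAMA1 -0.032 and LAMB3 -0.31. With a second quantile normalization COL19A1 was at 0.013, COL6A2 0.0046 and LAMB3 -0.037, and with the hybridization spikes COL6A2 was at 0.044. Averaging all probe sets gave COL1A2 -0.069, COL25A1 -0.087, COL4A1 0.056, COL6A2 0.094, LAMB3 -0.017, LAMC1 0.031 and NID1 -0.050. Without cross-hybridizing probe sets COL4A1 was at 0.45, LAMC1 0.51 and FKBP10 -0.35. Leaving out 1 array spanned -0.080 to 0.21 for COL11A2, -0.011 to 0.43 for COL12A1, -0.36 to 0.094 for COL22A1, -0.045 to 0.40 for COL25A1, -0.16 to 0.021 for COL4A6, -0.14 to 0.13 for COL6A2 and -0.17 to 0.064 for LAMB4. Of the other gene values under an alternative, 805 kept direction and call, 36 lost the call and 24 gained it. Genes near the no-target controls are limited by signal over background.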
